A study of Mus musculus with 12 samples.

Results

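The 4 myogenic regulatory factors (Myod1, Myf5, Myf6 and Myog), the 3 E proteins (Tcf3, Tcf4 and Tcf12) and the bHLH repressors Msc, Twist1 and Twist2 were followed across all libraries of the series. The members were chosen by name, with no use of measured values, and 9 of the 10 names had a row at both days, among 23954 genes listed at d0 and 24787 at d4. Twist1 was not analysed here. RNA was sequenced from C2C12 cells, a mouse myoblast line that fuses into myotubes when serum is lowered. WT cells and cells homozygous for the PGAM2-K176R knock-in, called mutant cells, were collected as undifferentiated cells in growth medium with fetal bovine serum (d0) and on day 4 in low-serum medium with horse serum (d4). The medium is given here by day, as in the protocols, whereas the treatment tag of the labels follows genotype and not day, and calls also the WT d4 libraries undifferentiated. Each of the 4 groups held 3 libraries. PGAM2 is the muscle form of the glycolytic enzyme phosphoglycerate mutase, and the exchanged lysine is a site of SUMO attachment. The mutant cells are a CRISPR-edited clonal line, so that the mutation and the clone cannot be told apart. The methods call the replicates biological but count fewer per condition than the labels list. Neither source says how the cultures were kept apart, and p-values measure only the spread between these libraries, which may be technical. In bulk RNA, fewer cells expressing a gene and less RNA per cell cannot be told apart.

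Basic helix-loop-helix (bHLH) proteins bind DNA as dimers at E-boxes, 6-base sites with the letters CANNTG. MyoD and Myf5 set the identity of myoblasts, myogenin is switched on when the cells leave the cell cycle and drives their differentiation, and MRF4 (encoded by Myf6) is mainly a factor of late muscle fibres. Each of them works as a heterodimer with an E protein, a broadly expressed bHLH partner. Msc (MyoR) and Twist2 (Dermo1) compete for the same partners and sites and repress muscle genes, while Id proteins have no basic region and hold E proteins away from DNA.

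The basic region, which touches the DNA, shows how the members divide. The stretches shown here are 54 bases (18 codons) of coding sequence from GENCODE M21 on GRCm38, and the capitals mark the 2 codons at the place where MyoD carries the alanine-threonine pair that its muscle-specific activity needs. The capitals read alanine-threonine in the 4 myogenic factors, asparagine-asparagine in Tcf3 and Tcf12, and alanine-asparagine in Msc and Twist2.
Myod1 (exon 1 of 3, chr7:46377003-46377056, plus strand): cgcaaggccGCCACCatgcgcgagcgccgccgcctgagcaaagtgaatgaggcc
Myf5 (exon 1 of 3, chr10:107485626-107485679, minus strand): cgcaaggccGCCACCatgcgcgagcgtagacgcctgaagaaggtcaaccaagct
Myf6 (exon 1 of 3, chr10:107494369-107494422, minus strand): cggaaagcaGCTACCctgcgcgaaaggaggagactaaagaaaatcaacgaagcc
Myog (exon 1 of 3, chr1:134290302-134290355, plus strand): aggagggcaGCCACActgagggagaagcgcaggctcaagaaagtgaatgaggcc
Tcf3 (exon 18 of 19, chr10:80410516-80410569, minus strand): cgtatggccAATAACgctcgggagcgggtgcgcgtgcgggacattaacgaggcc
Tcf12 (exon 19 of 21, chr9:71856423-71856476, minus strand): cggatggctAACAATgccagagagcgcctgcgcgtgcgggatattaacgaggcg
Msc (exon 1 of 2, chr1:14755386-14755439, minus strand): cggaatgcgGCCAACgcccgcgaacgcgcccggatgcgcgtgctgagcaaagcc
Twist2 (exon 1 of 2, chr1:91801828-91801881, plus strand): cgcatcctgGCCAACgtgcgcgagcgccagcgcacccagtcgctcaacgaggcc
Within these 54 bases, Myod1 was 79.6% identical to Myf5 and 70.4% identical to Myog, and Tcf3 was 79.6% identical to Tcf12. Myog and Msc were 42.6% identical. Over whole transcripts the longest exact stretch shared by any pair of members was 47 bases, between Tcf4 and Tcf12, and among the myogenic factors it was 26 bases, between Myod1 and Myf5. These stretches did not follow the families, with 45 bases for Tcf12 and Msc and 18 for Tcf3 and Tcf12.

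Myog, the member whose level differed most between the groups, has an upstream sequence that myogenic bHLH factors are known to read. RefSeq (GRCm38.p6) gives the 250 bases before its start at chr1:134289754-134290003, plus strand, shown here with the E-boxes in capitals.
Myog upstream sequence: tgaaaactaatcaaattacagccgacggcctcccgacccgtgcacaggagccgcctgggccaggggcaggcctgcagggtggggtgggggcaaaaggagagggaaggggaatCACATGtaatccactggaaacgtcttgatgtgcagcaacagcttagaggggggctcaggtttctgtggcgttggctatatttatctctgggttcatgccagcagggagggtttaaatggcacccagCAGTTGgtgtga
A search for CANNTG, which reads the same motif on both strands, found CACATG at position -138 and CAGTTG at position -12 from the RefSeq start. The files start Myog at 134289989, inside the end of this window, so that CAGTTG lies within the gene as they define it. One or more such letters stand in 66.2% of the 32841 promoter windows of this length and 2 or more in 31.8%, so that the match is a description and not a mapped site. Of the other members with a window in the table, Tcf3 had 1 match, Tcf12 had 1 in each of 2 of its 3 windows, and neither Myf5 nor Twist2 had any.

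Each library held 16098407 to 21412560 reads assigned to genes. The edited gene Pgam2 was transcribed in every library, at 2.71 to 3.15 FPKM (fragments per kilobase, scaled for depth) in WT cells at d0 against 3.97 to 6.76 in mutant cells. At d4 it stood at 122 to 132 FPKM in WT cells against 10.3 to 10.9 in mutant cells. The K176R exchange leaves the transcript in place, so this level does not check the genotype labels. The cells held myoblast markers, and 10 of them summed to 291 to 335 FPKM in WT cells at d0 and to 328 to 379 FPKM in the mutant, although 2 of 9 tested, Pax7 and Vcam1, were lower in mutant cells, Pax7 with 0, 0 and 2 reads. Tested markers are counted here as lower or higher by the calling thresholds given below. Among all genes tested, 9.21% were so called lower and 3.03% higher in mutant cells at d0, and 5.98% and 1.76% at d4. Markers of other states moved with the genotype at d0. The 12 differentiated muscle markers summed to 44.6 to 65.3 FPKM in WT cells and 5.37 to 6.11 FPKM in the mutant, with Myh2 and Myh4 at 0 reads in the latter, and 10 of 11 tested were lower. Of 12 fibroblast and smooth muscle markers, 9 of 10 tested were lower in mutant cells (310 to 364 FPKM summed against 874 to 1063, with Lum and Thy1 at 0 reads in mutant cells). Sums were higher in mutant cells for 10 listed blood, endothelial and epithelial markers (136 to 163 against 35.3 to 43.3 FPKM, 3 of 4 tested higher, Cdh5, Hbb-bs, Krt18 and Pecam1 at 0 reads in mutant cells). Most of this sum was Krt19, with means of 105 against 32.0 FPKM, and Hba-a1, with 41.3 against 4.98 FPKM. The endothelial genes Kdr and Cdh5 had 11 and 0 reads in mutant cells against 35 and 12 in WT cells. Sums were also higher for 8 listed neuron and glia markers (104 to 144 against 31.4 to 66.8 FPKM, 2 of 5 tested higher, Snap25 at 0 reads). The 10 listed pancreatic markers summed to 13.8 to 23.8 against 5.32 to 7.23 FPKM (3 of 5 tested higher, Cpa1 and Prss1 at 0 reads). At d4 all 12 differentiated muscle markers were lower in mutant cells (565 to 612 against 4398 to 4547 FPKM summed), as were 3 of 9 tested fibroblast and 3 of 9 tested myoblast markers, and none of the 8 tested blood, neuron or pancreatic markers was called. Their part in the differences between members was not tested.

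Myog was far lower in mutant than in WT cells at both days, Msc was higher and Tcf4 lower in mutant cells at d0, and Myf5 was higher in mutant cells at d4. Myod1 was 3.27-fold higher at d4 than at d0 in WT cells and 3.07-fold higher in mutant cells, and its level differed between genotypes by 1.21-fold at d0 and 1.26-fold at d4. A change was called at an adjusted p under 0.05 (Benjamini-Hochberg, over all genes tested) with an absolute log2 fold change over 1. Between genotypes at d0, 3 of 8 members tested were called (Myog, Tcf4 and Msc), beside 12.2% of the 13920 genes tested. At d4, 2 of 8 were called (Myog and Myf5), beside 7.73% of 13252 genes. That share belongs to limma on log2(FPKM + 1). On reads, edgeR called the same 2 members beside 15.9% of 14175 genes, and DESeq2 called 3, Myf6 included, and 2450 genes. From d0 to d4, 3 of 9 were called in WT cells (Myog, Myod1 and Twist2), beside 25.6% of 14336 genes, and 6 of 8 in mutant cells (Myog, Myod1, Myf5, Tcf4, Msc and Twist2), beside 34.4% of 13755 genes. In a test of whether the day change differed between genotypes, 4 of 9 were called (Myf5, Myog and Tcf4 upward and Msc downward), beside 16.6% of 15114 genes, 8.68% upward and 7.95% downward. At the adjusted p alone, 4 of 8 members passed at d0 (44.3% of all genes tested), 6 of 8 at d4 (55.7%), 7 of 9 over time in WT cells (62.6%), 8 of 8 in mutant cells (75.2%) and 5 of 9 in the interaction (45.2%). The median log2 fold change of the members tested was -0.36 at d0 and -0.06 at d4, against -0.02 and 0.0044 over all genes tested.

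**Figure D1:**
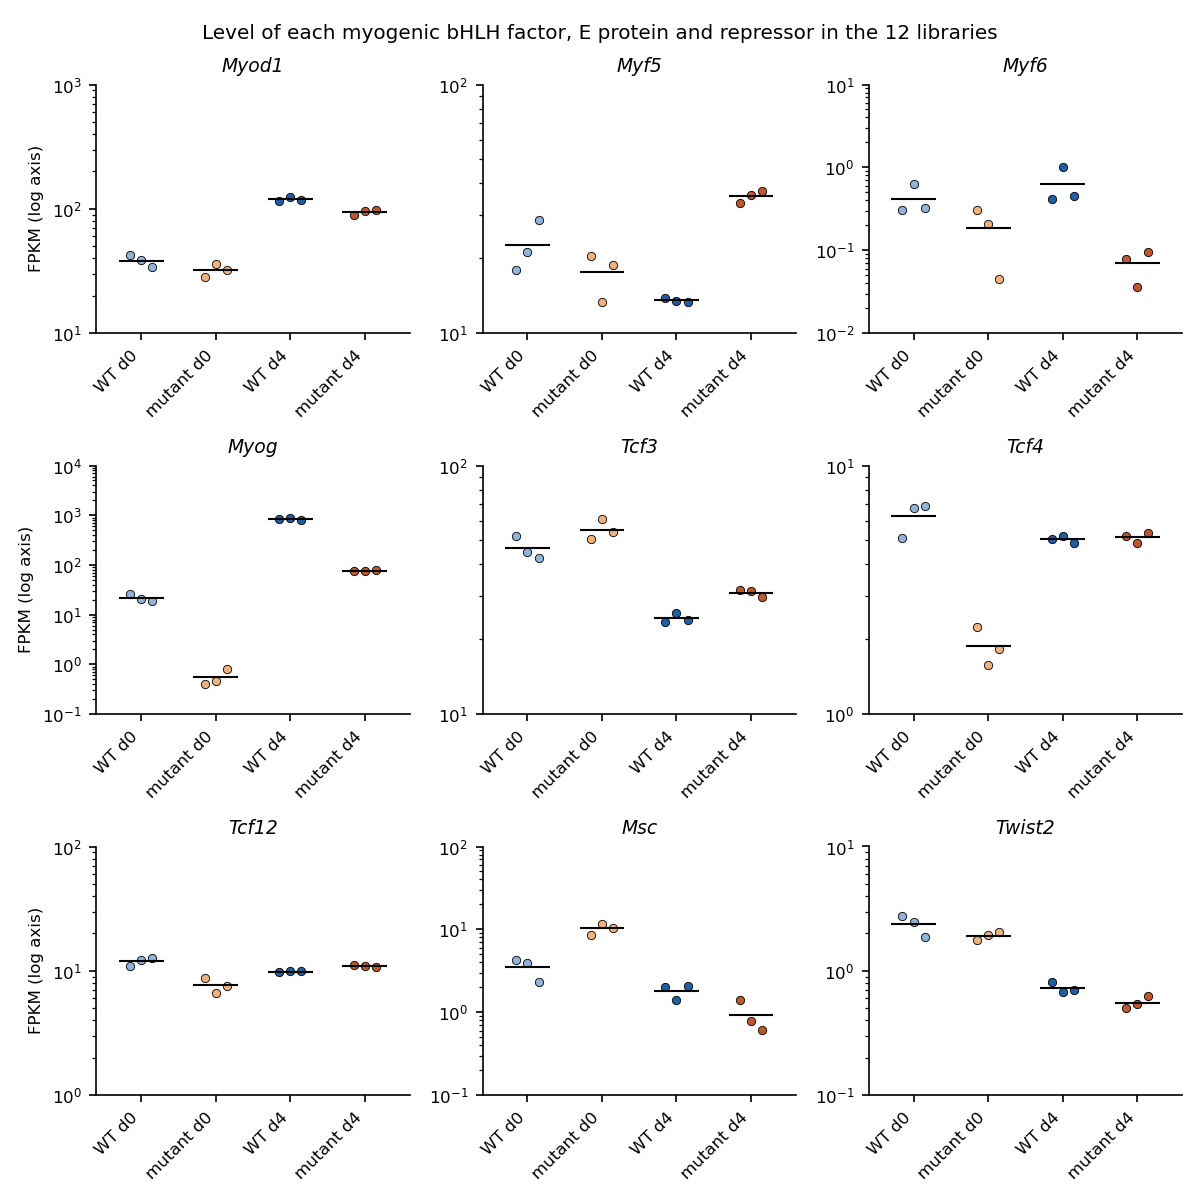
FPKM (log axis) of the 9 listed members in the 12 libraries, by group, with 1 point per library and a line at the mean of 3. Myog spans the widest range, from 0.409 FPKM in a mutant d0 library to 878 FPKM in a WT d4 library, whereas Tcf12 stays between 6.68 and 12.8 FPKM.

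Myog (ENSMUSG00000026459), the myogenin gene, lies at chr1:134289989-134292548 on the plus strand of mm10. In WT cells at d0 its level was 26.1, 21.1 and 19.1 FPKM, and in mutant cells 0.409, 0.457 and 0.809 FPKM, from 11, 13 and 21 reads. The mutant libraries were thus all far below the WT libraries, with no overlap. The log2 fold change was -5.33 ± 0.22 (SE, n = 3 per group), 40.2-fold lower (edgeR quasi-likelihood test, adjusted p = 6.82e-09). At d4 Myog stood at 836, 878 and 820 FPKM in WT cells and at 74.7, 74.7 and 80.2 FPKM in mutant cells. No mutant library came near a WT library of the same day. On the log2(FPKM + 1) scale the difference at d4 was -3.45 ± 0.04 (limma, adjusted p = 5.81e-09), and on reads it was -3.46.

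Over time Myog rose in both genotypes. The rise was 5.32 ± 0.11 on the log2 scale in WT cells (edgeR, adjusted p = 8.55e-16) and 7.16 ± 0.15 in mutant cells (edgeR, adjusted p = 4.47e-16), 40.0-fold and 143-fold. The mutant rise was larger by 1.83 ± 0.23 (edgeR interaction test, adjusted p = 2.85e-06), starting from 45 reads over 3 libraries. Mutant cells therefore showed the larger fold rise and the lower level at d4.

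Myod1 (ENSMUSG00000009471, chr7:46376474-46379099, plus strand), the gene for MyoD, was at a similar level in both genotypes at d0. WT libraries had 42.5, 38.5 and 33.7 FPKM and mutant libraries 28.4, 35.7 and 32.3 FPKM, and the groups overlapped. The log2 difference of -0.27 ± 0.11 was not called (edgeR, adjusted p = 0.0681). At d4 WT cells had 115, 125 and 118 FPKM and mutant cells 89.6, 96.6 and 97.6 FPKM. Here every mutant library lay below every WT library, by -0.33 ± 0.05 on the log2 scale (limma, adjusted p = 7.44e-04), a difference larger than the replicate spread but smaller than the fold threshold. Myod1 rose by 1.71 ± 0.09 in WT cells (edgeR, adjusted p = 8.27e-11) and by 1.62 ± 0.08 in mutant cells (edgeR, adjusted p = 2.33e-11), and these rises differed by -0.10 ± 0.13 (edgeR, adjusted p = 0.548).

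Myf5 and Myf6 are neighbours on the minus strand of chromosome 10, at chr10:107482908-107486134 (ENSMUSG00000000435) and chr10:107492853-107494737 (ENSMUSG00000035923). Myf5, which marks proliferating myoblasts, had 18.0, 21.3 and 28.5 FPKM in WT cells at d0 against 20.4, 13.4 and 18.8 FPKM in mutant cells, with overlap between the groups and a log2 difference of -0.39 ± 0.18 (edgeR, adjusted p = 0.104). At d4 WT cells had 13.9, 13.4 and 13.4 FPKM and mutant cells 33.3, 35.8 and 37.3 FPKM. All 3 mutant libraries then exceeded every other library of the series, d0 libraries included, although FPKM of the 2 days were scaled separately. The difference at d4 was 1.32 ± 0.05 on the log2(FPKM + 1) scale (limma, adjusted p = 8.55e-07), and 1.39 on reads.

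The day difference of Myf5 had opposite signs in the genotypes. In WT cells it was -0.67 ± 0.14 on the log2 scale (edgeR, adjusted p = 4.94e-04), short of the fold threshold, and in mutant cells Myf5 rose by 1.07 ± 0.12 (edgeR, adjusted p = 6.79e-07). The difference of the day changes was 1.73 ± 0.21 (edgeR, adjusted p = 1.26e-06). The mutant rise was 0.89 without the mutant d0 library of replicate 2, which had the lowest Myf5 level of that group, and then no longer passed the fold threshold, with an adjusted p of 6.95e-09 (edgeR).

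Myf6, the gene for MRF4, was near the lower limit of the measurement. WT cells had 8, 18 and 9 reads at d0 and 10, 25 and 9 reads at d4, which is 0.305 to 0.637 and 0.414 to 1.02 FPKM. Mutant cells had 7, 5 and 1 reads at d0 and 2, 1 and 2 reads at d4. No mutant d4 library reached the lowest WT library of that day. With 5 against 44 reads in all, the level at d4 was 8.89-fold lower in mutant cells, with a 95% exact interval of 3.54 to 28.7 that covers counting error only. Myf6 did not pass the filters on low values for the comparisons between genotypes, and without such a filter DESeq2 on reads called it lower in mutant cells at d4 (-3.20 ± 1.0, adjusted p = 0.00435). In WT cells its day change was 0.64 ± 0.49 (edgeR, adjusted p = 0.266), and the day changes of the genotypes differed by -2.00 ± 1.0 (edgeR, adjusted p = 0.111), and neither was detectable at this depth.

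Of the E proteins, Tcf3 (ENSMUSG00000020167, chr10:80409514-80433647, minus strand), which encodes E12 and E47, had the highest FPKM in each group. In reads, not per length, Tcf3 was below Tcf12 and Tcf4 at d4, with 5351 against 8326 and 7540 in WT cells. In mutant cells it had 7284 against 9987 and 8205. WT cells had 52.2, 44.7 and 42.6 FPKM at d0 and mutant cells 50.6, 60.7 and 53.8 FPKM, with overlap and a log2 difference of 0.22 ± 0.10 (edgeR, adjusted p = 0.104). At d4 the levels were 23.6, 25.5 and 23.8 FPKM in WT against 31.6, 31.2 and 29.6 FPKM in mutant cells. The mutant libraries were all above the WT libraries at d4, by 0.33 ± 0.05 (limma, adjusted p = 6.84e-04). The day difference of Tcf3 was -0.87 ± 0.09 in WT cells (edgeR, adjusted p = 2.41e-07) and -0.78 ± 0.07 in mutant cells (edgeR, adjusted p = 7.01e-08), both short of the fold threshold, and these differed by 0.08 ± 0.12 (edgeR, adjusted p = 0.607).

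Tcf4 (ENSMUSG00000053477, chromosome 18, plus strand), the gene for the E protein E2-2, was lower in mutant cells at d0 and overlapped with WT cells at d4. At d0 it had 5.13, 6.73 and 6.90 FPKM in WT cells against 2.24, 1.58 and 1.83 FPKM in mutant cells. No mutant library reached the WT range, and the log2 fold change was -1.76 ± 0.15 (edgeR, adjusted p = 2.98e-06), 3.38-fold lower. At d4 WT cells had 5.08, 5.20 and 4.87 FPKM and mutant cells 5.20, 4.89 and 5.36 FPKM, which overlapped throughout. The difference at d4 was 0.02 ± 0.06 on the log2(FPKM + 1) scale (limma, adjusted p = 0.754). The day difference of Tcf4 was -0.25 ± 0.10 in WT cells (edgeR, adjusted p = 0.0507), and in mutant cells it rose by 1.51 ± 0.11 (edgeR, adjusted p = 1.45e-09). These day changes differed by 1.74 ± 0.16 (edgeR, adjusted p = 4.63e-08).

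Tcf12 (ENSMUSG00000032228, chr9:71842688-72111871, minus strand), which encodes HEB and can partner MyoD, was called in no comparison. It had 11.0, 12.2 and 12.8 FPKM in WT cells at d0 against 8.81, 6.68 and 7.61 FPKM in mutant cells. The groups did not overlap, and the log2 difference of -0.66 ± 0.11 (edgeR, adjusted p = 6.71e-04) was below the fold threshold. At d4 the levels were 9.74, 9.94 and 9.89 FPKM in WT cells against 11.2, 11.0 and 10.8 FPKM in mutant cells, so that the mutant libraries lay slightly above (0.14 ± 0.04, limma, adjusted p = 0.0194). The day change was -0.22 ± 0.08 in WT cells (edgeR, adjusted p = 0.0283) and 0.57 ± 0.09 in mutant cells (edgeR, adjusted p = 2.48e-05), with a difference between them of 0.78 ± 0.12 (edgeR, adjusted p = 4.30e-05).

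Among the repressors, Msc (ENSMUSG00000025930, chr1:14753346-14755992, minus strand) had its highest level in mutant cells at d0. WT libraries had 4.27, 3.97 and 2.33 FPKM and mutant libraries 8.66, 11.7 and 10.4 FPKM. Each mutant library was above each WT library, and the log2 fold change was 1.52 ± 0.20 (edgeR, adjusted p = 9.95e-05), 2.87-fold higher. At d4 the order was turned, with 2.01, 1.39 and 2.09 FPKM in WT against 1.42, 0.779 and 0.618 FPKM in mutant cells. The d4 groups overlapped in 1 library, and the difference was -0.56 ± 0.17 (limma, adjusted p = 0.0283) and -0.94 on reads, both short of the fold threshold.

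From d0 to d4 the difference of Msc was -0.88 ± 0.23 in WT cells (edgeR, adjusted p = 0.00340) and Msc fell by 3.37 ± 0.21 in mutant cells (edgeR, adjusted p = 2.26e-10), 10.3-fold. The difference between the day changes was -2.50 ± 0.36 (edgeR, adjusted p = 1.11e-05). Without the WT d0 library of replicate 3, which had the lowest Msc level of its group, the WT change was -1.12 and passed the fold threshold. Msc shares 539 exonic bases with Gm9947 on the opposite strand, and the strand setting of the counting is not known here. Gm9947 stood at no more than 0.374 FPKM in any library.

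Twist2 (ENSMUSG00000007805, chr1:91801461-91848028, plus strand) was low and followed the same course in both genotypes. It had 2.76, 2.49 and 1.88 FPKM in WT cells at d0 against 1.77, 1.94 and 2.05 FPKM in mutant cells, with overlap and a log2 difference of -0.33 ± 0.17 (edgeR, adjusted p = 0.136). At d4 it had 0.807, 0.680 and 0.698 FPKM in WT cells against 0.498, 0.538 and 0.629 FPKM in mutant cells. The d4 groups did not overlap, and the difference was -0.15 ± 0.09 on the log2(FPKM + 1) scale (limma, adjusted p = 0.211). On reads it was -0.39 (edgeR, adjusted p = 0.283). It fell by 1.64 ± 0.21 in WT cells (edgeR, adjusted p = 5.58e-06) and by 1.73 ± 0.21 in mutant cells (edgeR, adjusted p = 1.04e-06), and the day changes differed by -0.11 ± 0.28 (edgeR, adjusted p = 0.787). Twist2 shares 1477 exonic bases with Gm29100 on the opposite strand, which stood at no more than 0.386 FPKM.

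**Figure D2:**
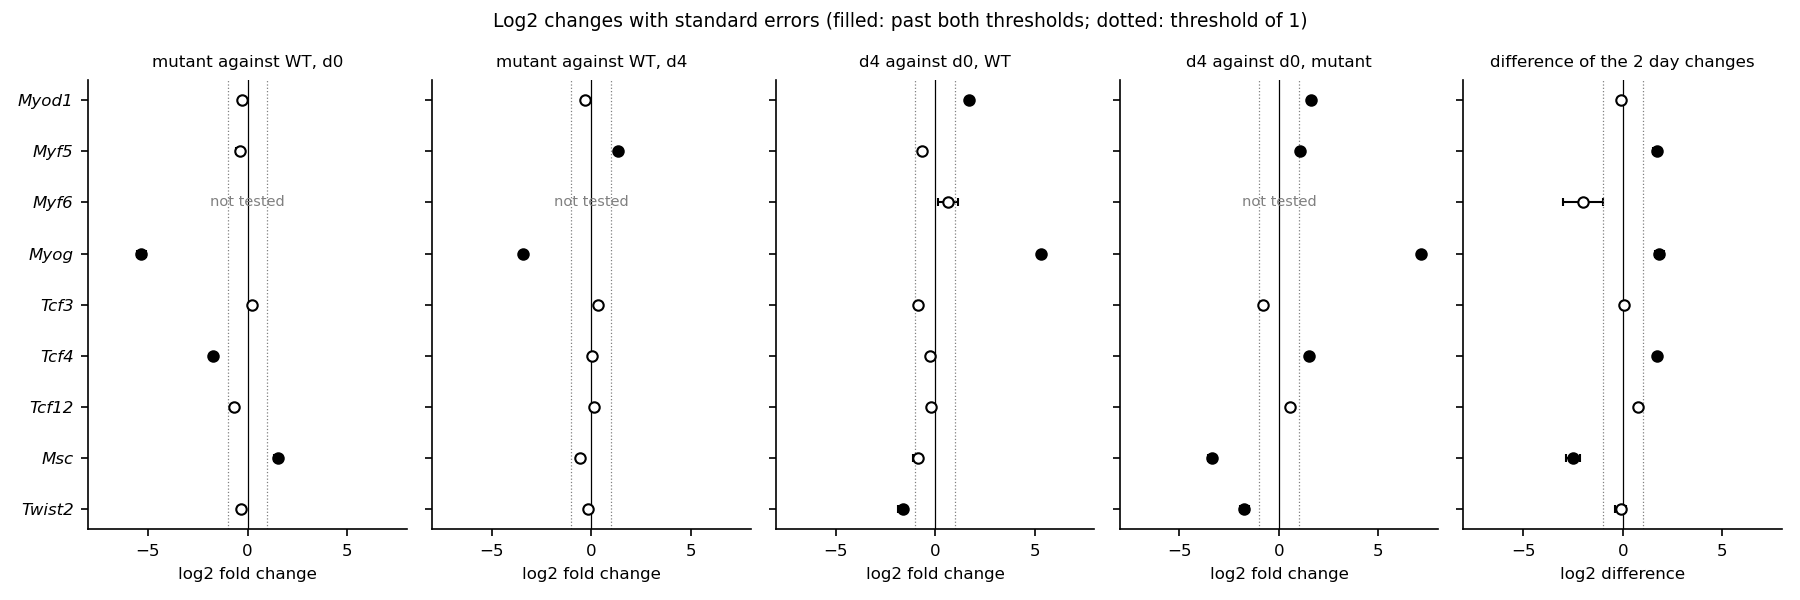
Log2 fold change of each member in the 4 comparisons and the difference of the day changes (x axis, log2 units), with bars of 1 SE. Filled circles passed both thresholds, as Myog did in all 5 panels, at -5.33, -3.45, 5.32, 7.16 and 1.83, while the difference of the day changes was -0.10 for Myod1, 0.08 for Tcf3 and -0.11 for Twist2, none of them called.

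The order of the members' FPKM, a level per length of gene, changed with the day and the genotype. At d0 Tcf3, Myod1 and Myf5 came first in both genotypes. In WT cells Myog followed, at 22.1 ± 3.62 FPKM (SD, n = 3), and its range overlapped that of Myf5. In mutant cells Myog was the last but Myf6, at 0.558 ± 0.218 FPKM, and Msc came next after Myf5 at 10.3 ± 1.54 FPKM, its lowest library (8.66 FPKM) overlapping with Tcf12. At d4 the WT order began with Myog at 844 ± 29.8 FPKM, then Myod1 at 120 ± 4.91 FPKM and Tcf3 at 24.3 ± 1.06 FPKM, with no overlap among them. In mutant cells Myod1 came first at 94.6 ± 4.39 FPKM, before Myog at 76.5 ± 3.17 FPKM and Myf5 at 35.5 ± 2.06 FPKM, again with no overlap. Other neighbours whose ranges overlapped were Msc and Twist2 in WT cells at d0 and in mutant cells at d4, Twist2 and Tcf4 in mutant cells at d0, and Twist2 and Myf6 in WT cells at d4.

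These levels depend on the gene length used in the files, which is the union of all exons. For the 4 myogenic factors this is the length of their single annotated transcript. For Tcf4 it is 27382 bases, 3.19 times its longest GENCODE M21 transcript, for Tcf12 15529 bases, 2.47 times, and for Tcf3 4039 bases, 1.37 times. Among the repressors it is 1.46 times for Msc and 1.26 times for Twist2. Against the median coding transcript it is 16.7 times for Tcf4, 10.2 times for Tcf12 and 1.43 times for Tcf3. The FPKM of the E proteins and repressors, of Tcf4 and Tcf12 above all, are therefore low against those of the myogenic factors, and fold changes of a gene between groups are not touched. Those of Tcf4 and Tcf12 are also low against that of Tcf3, so that the rank, shares and sum of the E proteins depend on these lengths.

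The composition of the myogenic factor RNA was compared within each library. Myog made up 30.0%, 25.9% and 23.4% of the summed FPKM of the 4 factors in WT cells at d0, and 0.824%, 0.919% and 1.56% in mutant cells. At d4 its share was 86.6%, 86.3% and 86.1% in WT cells against 37.8%, 36.1% and 37.3% in mutant cells. The shares of the groups did not overlap in any of the 4 comparisons, with an exact permutation p of 0.1 (2-sided) in each, the smallest p that 3 libraries against 3 allow. The remainder was Myod1 and Myf5, apart from Myf6 with 0.508% and 0.376% in WT and mutant cells at d0 and 0.0634% and 0.0339% at d4 (means of 3). In mutant cells at d4, Myod1 held 45.8% ± 0.760 and Myf5 17.2% ± 0.279 (SD, n = 3), where WT cells had 12.2% ± 0.244 and 1.39% ± 0.0618. Summed over the 4 factors, the level was 83.4 ± 3.06 FPKM in WT against 50.4 ± 1.35 FPKM in mutant cells at d0, and 978 ± 34.3 against 207 ± 8.81 FPKM at d4.

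Summed over the 3 E proteins in FPKM, the genotypes overlapped at d0, at 62.2 to 68.3 FPKM in WT against 61.6 to 69.0 FPKM in mutant libraries. This overlap holds for exon-union lengths, which weigh down Tcf4 and Tcf12, both lower in mutant cells at d0. In reads, not scaled for depth, WT against mutant cells had 11256 against 2800 for Tcf4. For Tcf12 they had 12199 against 6491 and for Tcf3 12252 against 12121. Within that sum Tcf4 held 9.73% ± 1.94 in WT and 2.94% ± 0.677 in mutant cells (SD, n = 3), and Tcf3 71.7% ± 4.19 and 85.1% ± 2.99. At d4 the sum was 38.4 to 40.7 FPKM in WT against 45.7 to 48.0 FPKM in mutant libraries. The ratio of myogenic factors to E proteins was 1.27, 1.28 and 1.31 in WT cells at d0 against 0.804, 0.721 and 0.822 in mutant cells. The d4 values were 25.1, 25.0 and 24.7 in WT cells against 4.12, 4.40 and 4.71 in mutant cells, 5.66-fold lower. The groups did not overlap in any of the 4 comparisons (exact permutation p = 0.1 in each, the smallest possible). With each member divided by the length of its longest transcript, the mean ratios were 0.737 and 0.503 at d0 and 13.3 and 2.41 at d4, for WT and mutant cells. In reads, not per length, they were 0.279 and 0.248 at d0, a log2 difference of -0.17 where FPKM gave -0.72, and 3.88 and 0.836 at d4.

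**Figure D3:**
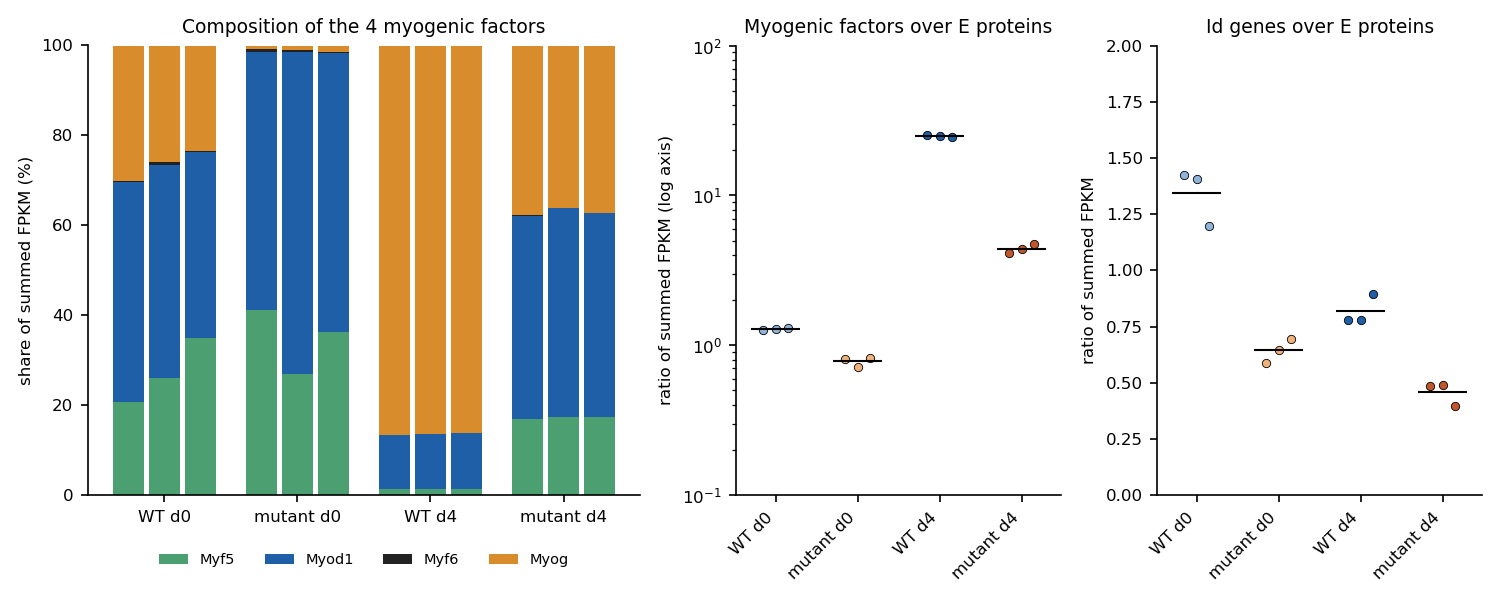
Left, share of each myogenic factor in their summed FPKM (percent), 1 bar per library. Middle and right, ratio of the summed FPKM of myogenic factors (log axis) and of Id genes to that of the 3 E proteins, with 1 point per library and lines at the means of 3. Myog takes 86.1% to 86.6% of the bar in WT against 36.1% to 37.8% in mutant libraries at d4, and the ratio of myogenic factors to E proteins is 24.9 against 4.41.

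The inhibitors that share these partners were described from a list of 16 HLH inhibitors and repressors. At d0, 3 of 15 tested were lower in mutant cells and none was higher, beside 9.21% lower and 3.03% higher among all genes tested, with a median log2 fold change of -0.62. The 3 were Heyl, Id3 and Mdfi, the last with a mean of 0.317 FPKM in WT cells against 0.0539 FPKM in mutant cells. At d4, 2 of 14 were lower and none higher, beside 5.98% and 1.76%, with a median of -0.22. Not all went down, and Hey1 stood higher in mutant cells at both days without being called. It had 9.85 to 10.3 FPKM in mutant against 4.00 to 5.17 FPKM in WT cells at d4. At d0 it had 2.26 to 2.79 against 1.44 to 1.87 FPKM, and neither day showed overlap. Of the Id genes, Id3 had 57.9, 49.7 and 44.6 FPKM in WT cells at d0 against 13.9, 16.5 and 15.5 FPKM in mutant cells, without overlap, a log2 fold change of -1.75 ± 0.12 (edgeR, adjusted p = 3.40e-07). At d4 the Id3 levels overlapped, at 14.4 to 16.8 FPKM in WT against 10.9 to 15.3 FPKM in mutant cells. Id2 had 5.81 to 9.50 FPKM in WT against 4.36 to 4.46 FPKM in mutant cells at d0, and at d4 3.04 to 3.77 and 0.606 to 0.811 FPKM, where it was called lower (-1.37 ± 0.09, limma, adjusted p = 1.93e-05). Id1 had 24.0 to 31.1 and 18.0 to 23.9 FPKM at d0 and was not called (-0.40 ± 0.14, edgeR, adjusted p = 0.0347). Id4 had 0 to 4 reads in each library and was not tested.

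Set against the E proteins, the summed Id genes stood at 1.42, 1.41 and 1.2 in WT cells against 0.589, 0.648 and 0.694 in mutant cells at d0. At d4 the ratio was 0.781, 0.780 and 0.896 in WT cells against 0.487, 0.489 and 0.396 in mutant cells. The ratio was thus lower in mutant cells at both days and lower at d4 than at d0 in both genotypes, without overlap in any of the 4 comparisons (exact permutation p = 0.1 in each, the smallest possible). The size of the ratio depends on the gene length used. With the longest transcript for the E proteins, and the Id genes left at their exon-union length, the d0 means were 0.769 and 0.415 for WT and mutant cells. In reads, not per length, they were 0.264 and 0.162.

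Of the other listed repressors, Heyl, a Notch-responsive bHLH factor, had 2.55, 2.49 and 2.02 FPKM in WT cells at d0 against 0.304, 0.514 and 0.304 FPKM in mutant cells (-2.66 ± 0.21, edgeR, adjusted p = 1.90e-06). Snai2, a zinc finger repressor that can occupy E-boxes of muscle genes, had 33.8 to 49.3 and 20.1 to 24.2 FPKM at d0 and a log2 difference of -0.93 ± 0.14 (edgeR, adjusted p = 2.61e-04), short of the fold threshold. Hes6, a Hes family member known to oppose Hes1 and to favour rather than block muscle differentiation, had 105, 102 and 113 FPKM in WT cells at d4 against 21.3, 24.2 and 18.8 FPKM in mutant cells. Its difference at d4 was -2.27 ± 0.09 (limma, adjusted p = 1.01e-06), and it had risen by 2.14 ± 0.09 in WT cells. From d0 to d4, 6 of 15 tested inhibitors were called higher and 4 lower in WT cells, and 5 of 14 higher and 2 lower in mutant cells, with medians of 0.31 and 0.67. Among all genes tested 12.6% were higher and 13% lower in WT cells, and 17.3% and 17.1% in the mutant, with medians of -0.03 and -0.0072. The day changes of 5 of 15 differed between genotypes, beside 16.6% of all genes tested. Heyl (1.93 ± 0.20) and Id3 (1.51 ± 0.17) had the more positive change in mutant cells, as had Zeb2 (1.29 ± 0.17), and Hes6 (-1.87 ± 0.16) and Id2 (-1.46 ± 0.26) the more negative one (edgeR, adjusted p = 1.48e-04 or lower for each). Zeb2 and Id2 here, and Hey1 above, were named after their values were seen.

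**Figure D4:**
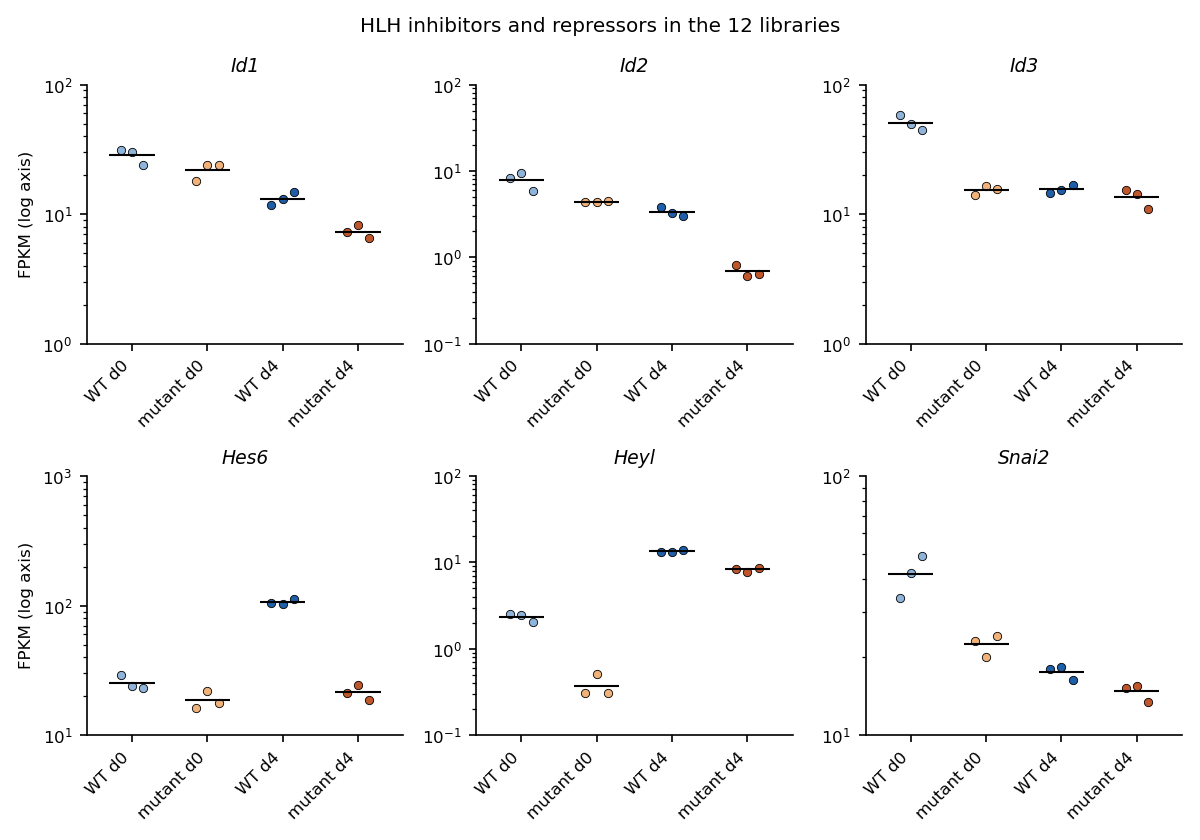
FPKM (log axis) of Id1, Id2, Id3, Hes6, Heyl and Snai2 in the 12 libraries by group, with 1 point per library and a line at the mean of 3. Id3 separates the genotypes at d0 (44.6 to 57.9 against 13.9 to 16.5 FPKM) and overlaps at d4, while Hes6 separates them at d4 (102 to 113 against 18.8 to 24.2 FPKM).

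Cofactors and partners of the myogenic factors were a list of 16, all tested. None was called at d0 with edgeR, beside 12.2% of all genes tested, and the median log2 fold change was -0.20. At that day 11 of 16 had an unadjusted p under 0.05 (edgeR). The adjusted p, a stricter threshold, was passed by 44.3% of all genes tested. The share of all genes at the unadjusted threshold was not counted, so the 11 cannot be read as an excess. At d4, 2 were lower in mutant cells, beside 5.98% of all genes. These were Mef2c, a MADS box partner of the bHLH factors (-2.50 ± 0.08, limma, adjusted p = 3.56e-07), and Tead4, a TEA domain factor (-2.59 ± 0.06, limma, adjusted p = 1.20e-07). From d0 to d4, 5 were higher and none lower in WT cells, and 6 higher and 1 lower in mutant cells, beside 12.6% higher and 13% lower among all genes tested in WT cells and 17.3% and 17.1% in the mutant. The rise of Mef2c was 5.03 ± 0.11 in WT cells (edgeR, adjusted p = 1.82e-15), and its day change was smaller in mutant cells by -3.70 ± 0.17 (edgeR, adjusted p = 1.66e-12). For Tead4 the day change differed by -3.12 ± 0.14 (edgeR, adjusted p = 1.68e-12).

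Of 26 muscle genes known as direct targets of MyoD or myogenin, 16 of 24 tested were lower in mutant cells at d0 and none was higher, beside 9.21% lower and 3.03% higher among all genes tested, with a median log2 fold change of -2.37. Myh3, the embryonic myosin heavy chain, differed by -5.23 ± 0.28 (edgeR, adjusted p = 6.25e-08), Mymx, the fusion peptide myomixer, by -5.39 ± 0.40 (edgeR, adjusted p = 9.22e-07), and Actc1, cardiac actin, by -4.39 ± 0.26 (edgeR, adjusted p = 1.38e-07). Des and Chrna1, the most abundant targets that were not called, differed by 0.30 and 0.41. At d4, 20 of 25 were lower and none higher, beside 5.98% and 1.76%, with a median of -2.36. In WT cells all 25 tested were called higher at d4 than at d0, and in mutant cells 23 of 25, beside 12.6% and 17.3% of all genes, with medians of 6.09 and 5.69. The day changes differed between genotypes for 10 of 25 targets, 4 upward and 6 downward, beside 8.68% upward and 7.95% downward among all genes. Summed over the list, targets reached 14986 to 15855 FPKM in WT against 4433 to 4704 FPKM in mutant cells at d4, against 794 to 966 and 752 to 939 FPKM at d0. The summed levels of the genotypes overlapped at d0, where Des and Chrna1 were the most abundant targets, and did not overlap at d4.

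The bHLH factors of other lineages, a list of 36, were mostly silent. Of 17 that were listed at all, 1 or 2 in each group exceeded a mean of 1 FPKM. Scx, the tendon factor scleraxis, had a mean of 45.3 ± 4.05 FPKM in WT against 47.3 ± 2.77 FPKM in mutant cells at d0 (SD, n = 3), and 107 ± 8.20 against 39.3 ± 1.61 FPKM at d4. Its difference at d4 was -1.43 ± 0.06 (limma, adjusted p = 1.43e-06). Atoh8 had 5.54 ± 0.774 FPKM in WT against 0.730 ± 0.0998 FPKM in mutant cells at d0 (-2.94 ± 0.18, edgeR, adjusted p = 1.66e-07). At d0, 2 of 3 tested were called lower in mutant cells and at d4 1 of 2, beside 9.21% and 5.98% of all genes tested.

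Genes whose log2 CPM (reads scaled to library size) followed a myogenic factor most closely over the 12 libraries were named as a description, since the libraries share 4 groups and the points are not independent. For Myog these were Glul (Pearson r = 0.996), Plxdc2 (0.995) and Rgma (0.994), and 194 of 12391 genes exceeded 0.95. Myod1 was closest to Prnp (0.996), AI464131 (0.995) and Slc6a6 (0.994), with 366 genes over 0.95. Myf5 had few genes like it, 9 over 0.95, led by Gm5662 (0.976), Oxr1 (0.969) and Vmp1 (0.968). For Myf6, with few reads, no gene exceeded 0.95, and Glyr1 came first (0.923).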

How the data were processed

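Total RNA of the 12 libraries was selected for poly(A) and sequenced in pairs on an Illumina platform by a service company. Of the processing, the submitters' notes give the build mm10 and the tool DESeq2 1.20.0. Aligner, counter and strand setting are not given in the sources available. Unnormalized gene counts were deposited together with FPKM values, per exon-union length and scaled within a day. The deposited count columns of the WT d4 table equalled the counts of mutant cells at d4 in all 24787 genes, so WT d4 reads were worked back from FPKM (100% of values whole within 0.01 reads, where the same step returned the deposited counts of the other 9 libraries). Genes were tested with edgeR 4.0.16 (quasi-likelihood, TMM, filterByExpr; R 4.3.3) on reads, separately for each pair of groups, and for the interaction over all 4 groups. At d4 the genotypes were compared with limma 3.58.1 on log2(FPKM + 1), keeping genes that reached 0.5 FPKM in 3 libraries. Fold changes of low genes are understated on this scale. Changes were called when the adjusted p was under 0.05 and the log2 fold change exceeded 1 in size. Ratios of summed FPKM were compared by exact permutation tests. The fits across genes were tested on simulated data. Alternatives were DESeq2 1.42.0, RLE factors, other pseudocounts, no filter, the replicate block, leaving out each library, 1 fit of 12 libraries and other lengths. Beyond the members, up to 3 called genes with the largest change (at a mean of at least 1 FPKM) and the 2 most abundant uncalled genes of a list were named. Columns of the authors' own comparisons were not used. The members, lists and tests were chosen with earlier results of these data known.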

Additional observations from a re-analysis of the deposited data

Results flagged for a closer look

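The change from d0 to d4 differed between mutant and WT cells for 4 members, by the interaction test over all 12 libraries (edgeR quasi-likelihood, adjusted over 15114 genes). For Myog the mutant change exceeded the WT change by 1.83 on the log2 scale, for Tcf4 by 1.74 and for Myf5 by 1.73. For Msc the mutant change was lower by -2.50. In each of these the sign and the call held under every alternative run for the interaction. None of the groups was large enough for a search for single outlying libraries.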

How the results depend on the processing

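Of 755 values recomputed under alternatives, 731 kept their direction and their side of the thresholds or, for counts and ratios, stayed within 1.5 times or 1 SD of the value reported. At d4, 1025 genes were called with limma, 1690 with a pseudocount of 0.1 and 439 with 5, 2258 with edgeR on reads, 2450 with DESeq2 on reads and 2385 in the fit of all 12 libraries. The last 2 of these fits called 3 members, Myf6 (not tested with limma) beside Myog and Myf5, and the others called these 2. Leaving out single libraries gave 811 to 1022 genes called at d4 and 1668 to 1903 at d0, 3661 to 3846 for the days in WT and 4804 to 5144 in mutant cells, and 2324 to 2723 for the interaction. Members called ranged from 3 to 4 for the days in WT cells, where Msc passed at -1.12 without WT d0 replicate 3, and from 5 to 6 in mutant cells, where Myf5 did not pass at 0.89 without mutant d0 replicate 2. The uncalled differences that turned sign on leaving out 1 library were that of Tcf4 at d4 (-0.0021 without mutant d4 replicate 3, range to 0.054), of Tcf3 in the interaction (-0.015 without WT d0 replicate 1, range to 0.15) and of Twist2 in the interaction (0.039 without WT d0 replicate 3, range from -0.23). Counted in reads and not per length, the log2 difference in the Myog share was -1.41 at d4 and 1.95 over time in WT cells. The ratio of myogenic factors to E proteins then differed by -0.17 at d0 and -2.22 at d4, and by 3.80 and 1.75 over time in WT and mutant cells. That of Id genes to E proteins differed by -0.69 at d0, and by -0.99 and -1.04 over time. With the longest transcript as length, chosen after seeing the data, the ratio of myogenic factors differed by -0.55 at d0, and by 4.17 and 2.26 over time. That of Id genes, themselves left at their exon-union length, differed by -0.89 at d0 and -0.73 over time in mutant cells. The moves of both ratios to E proteins come from the gene length used.

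No pairing of libraries by replicate number was seen, which 3 libraries per group cannot exclude, since deviations within a group depend on each other. Deviations of same-numbered libraries correlated by -0.28 to 0.04 at d0 and by less than 0.1 in the other comparisons. At d0, WT replicate 1 with mutant replicate 2 gave 0.23, and WT replicate 2 with mutant replicate 1 gave 0.21. With the replicate number as a block, 1657 genes were called at d0, 1032 at d4, 3603 and 4733 over time in WT and mutant cells and 2443 for the interaction, and no call of a member changed. Depth limited Myf6, with 5 to 44 reads per group, and Myog in mutant cells at d0, with 45.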
